A study of Mus musculus with 6 samples.

Results

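The mitochondrial fusion and fission genes are 10 genes chosen by name for what their proteins do, out of 22310 genes in the table. No measured value was a criterion, but earlier results of these data were known when they were chosen. They are the fusion genes Mfn1, Mfn2 and Opa1, the fission genes Dnm1l, Fis1, Mff, Mief1 and Mief2, and the genes of the OPA1 proteases, Oma1 and Yme1l1. All 10 were measured. RNA was sequenced from breast tumor cells of MMTV-PyMT mice that had been sorted into metastasis-initiating cells (MICs), which are Lin-CD24+CD90+, and non-MICs, which are Lin-CD24+CD90-. Each population had 3 libraries, numbered 1 to 3. Both populations carried the PyMT oncogene, which the MMTV promoter drives in mammary epithelium, in the FVB/N strain according to the methods, and the labels give the genotype as WT and the cell line as MMTV-PyMT for every sample. Both had been plated for a day in DMEM/F12 medium with hEGF (20 ng/ml), insulin (10 µg/ml), penstrep (1%) and FBS (2%) before the sort, so the RNA is that of briefly cultured cells. The mice were adults according to the methods, and the labels do not say whether libraries with the same number came from the same tumor. The comparison asks whether the RNA of the fusion and fission machinery differed between cells with and without the CD90 mark.

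Mitochondria continually join and divide, and the balance of the 2 processes sets whether the network is long and connected or broken into small units. The mitofusins MFN1 and MFN2 join outer membranes, and OPA1 joins inner membranes and holds the cristae in shape. For division the GTPase DRP1, the product of Dnm1l, is recruited from the cytosol by receptors on the outer membrane and tightens around the organelle. OMA1 and YME1L are inner membrane proteases that cut OPA1 at separate sites, OMA1 mainly under stress. Much of this machinery is controlled by cutting, phosphorylation and ubiquitin marks on the proteins, which RNA levels do not show.

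The deposited values are read counts per gene scaled to the same total of 35000000 in every library, and are called scaled reads here. The libraries held between 31467281 and 51759769 recovered reads, and the members had between 366 and 10143 reads each in a library. Thy1, which encodes CD90, was at 1509, 301.4 and 755.3 scaled reads in MICs 1, 2 and 3 and at 16.9, 21.1 and 12.6 in the non-MICs, as the sort requires. The epithelial markers Epcam, Cdh1, Krt8 and Krt18 were high in every library. Their sum was lowest in the libraries numbered 2, at 206082 in MIC 2 and 266861 in non-MIC 2. The summed values of the measured markers of cells that the sort removes were low beside the epithelial markers. For 5 immune genes the sum was at most 1938 in a MIC library and 1096 in a non-MIC library, both numbered 2. In MICs 1 and 3 it was 91.7 and 302. For 4 endothelial genes the sum was at most 50.7 and 42.8. Of 5 basal or myoepithelial markers, Krt5, Acta2, Myh11 and Cnn1 were higher in MICs in all 3 pairs of same-numbered libraries, and Krt14 was not. The summed value of these 5 ran from 7960 to 312718 in MICs, against a range of 6512 to 77847 in non-MICs. Of 6 fibroblast markers, 4 were higher in MICs in all 3 pairs, and the sum of the 6 was 636 to 1973 in MICs against 555 to 874 in non-MICs. The part of these marker groups in the results on the members was not tested.

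The fusion genes had lower mean values in MICs than in non-MICs by small amounts, and none passed the test. Mfn1 (ENSMUSG00000027668, chr3:32529465-32579239 on the plus strand, all positions on GRCm38) was at 2185, 2251 and 2582 scaled reads in MICs 1, 2 and 3 and at 2522, 2620 and 2798 in non-MICs 1, 2 and 3. Each MIC library lay below its same-numbered partner, but MIC 3 was above non-MIC 1, so the groups overlapped. The log2 fold change of Mfn1, MIC over non-MIC, was -0.18 (SE 0.18, 95% interval -0.61 to 0.25), with adjusted p = 1.00 by limma. Here and below, SE, intervals and p-values of single genes come from the fit without the replicate number, unless stated.

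Mfn2 (ENSMUSG00000029020, chr4:147873599-147904704, minus strand) also ties mitochondria to the endoplasmic reticulum. It was at 6085, 3758 and 4392 scaled reads in MICs and at 6895, 5023 and 3582 in non-MICs. Libraries numbered 1 were the highest of both populations, and the third pair went the other way from the first and second. Its log2 fold change was -0.10 (SE 0.30), and it changed sign when MIC 2 (0.05) or non-MIC 1 (0.13) was left out. Opa1 (ENSMUSG00000038084, chr16:29579334-29654884, plus strand) was at 2572, 2976 and 3775 scaled reads in MICs and at 3419, 3176 and 4021 in non-MICs. Libraries numbered 3 were the highest of both populations, MIC 1 was the lowest of all 6, and the groups overlapped. The log2 fold change of Opa1 was -0.20 (SE 0.22, 95% interval -0.71 to 0.31), with adjusted p = 1.00 by limma. It was the lowest of the 10 members with all libraries, but not without MIC 1, where it was -0.07, and it was -0.35 without MIC 3. In such fits the partner library stayed in. With whole pairs left out and the replicate number in the fit, the log2 fold change of Opa1 ran from -0.25 to -0.09.

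The fission genes had differences of both signs, and none passed the test. Dnm1l (ENSMUSG00000022789, chr16:16312230-16358959, minus strand), the gene of the DRP1 motor itself, was at 3599, 4843 and 4948 scaled reads in MICs and at 4382, 4206 and 5332 in non-MICs. MIC 1 was the lowest library and non-MIC 3 the highest, with the rest between them. Its log2 fold change was -0.06 (SE 0.21), and it changed sign without MIC 1 (0.09) or non-MIC 3 (0.04).

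Fis1 and Mff encode tail-anchored outer membrane proteins, of which MFF is a main DRP1 receptor in mammalian cells. Fis1 (ENSMUSG00000019054, chr5:136953275-136966234, plus strand) was at 2939, 3698 and 1954 scaled reads in MICs and at 2339, 2725 and 1937 in non-MICs. MICs 1 and 2 lay above their partners, while the libraries numbered 3 were the lowest of each population and close to each other. For Fis1 the log2 fold change was 0.26 (SE 0.28, 95% interval -0.39 to 0.91), and it was 0.05 without MIC 2 and 0.51 without MIC 3. With whole pairs left out and the replicate number in the fit, it ran from 0.17 to 0.39.

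Mff (ENSMUSG00000026150, chr1:82724890-82752394, plus strand) was at 3179, 4712 and 2231 scaled reads in MICs and at 2580, 2655 and 2397 in non-MICs. The non-MICs lay close together (2544 ± 133, SD, n = 3), and the MICs spread on both sides of them (3374 ± 1252, SD, n = 3), with MIC 2 the highest and MIC 3 the lowest of all 6 libraries. For Mff the log2 fold change was 0.34 (SE 0.28, 95% interval -0.32 to 1.00), with adjusted p = 1.00 by limma. It was 0.07 without MIC 2 and 0.61 without MIC 3. With whole pairs left out and the replicate number in the fit, it ran from 0.10 to 0.56.

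Mief1 and Mief2 encode MiD51 and MiD49, the outer membrane adaptors that also bring DRP1 to mitochondria. Mief1 (ENSMUSG00000022412, chr15:80234018-80253371, plus strand) was at 1111, 1472 and 1455 scaled reads in MICs and at 1182, 1375 and 1579 in non-MICs. Libraries numbered 1 were the lowest of both populations, and the groups overlapped almost fully. Its log2 fold change was -0.04 (SE 0.23), and it was above 0 after quantile normalization (0.03) and without MIC 1 (0.10) or non-MIC 3 (0.07). Mief2 (ENSMUSG00000018599, chr11:60728398-60732951, plus strand) was at 395, 463 and 321 scaled reads in MICs and at 504, 507 and 325 in non-MICs. Here the libraries numbered 3 were the lowest of both populations. Mief2 had a log2 fold change of -0.17 (SE 0.30), which ran from -0.03 without MIC 3 to -0.38 without non-MIC 3. With whole pairs left out and the replicate number in the fit, it ran from -0.24 to -0.08.

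Of the protease genes, Yme1l1 showed the largest difference among the 10 members and Oma1 a small one. Oma1 (ENSMUSG00000035069, chr4:103313812-103371868, plus strand) was at 726, 732 and 640 scaled reads in MICs and at 616, 761 and 583 in non-MICs. Non-MICs 2 and 3 were the highest and the lowest library, so that the MICs lay within the range of the non-MICs. Its log2 fold change was 0.11 (SE 0.23), from 0.03 without non-MIC 3 to 0.22 without non-MIC 2. Yme1l1 (ENSMUSG00000026775, chr2:23156369-23199260, plus strand) was at 8159, 11282 and 6302 scaled reads in MICs and at 5123, 5140 and 6257 in non-MICs. Every MIC library lay above every non-MIC library, but MIC 3 and non-MIC 3 were nearly level. The log2 fold change of Yme1l1 was 0.61 (SE 0.25, 95% interval 0.02 to 1.19), a 1.52-fold higher value, with an unadjusted p = 0.0438 and an adjusted p = 1.00 by limma. With the replicate number in the fit, the SE was 0.21 and the 95% interval 0.16 to 1.05. The limma p was then 0.0114 unadjusted and 0.417 adjusted. In the fit without that number, the log2 fold change of Yme1l1 was 0.39 with MIC 2 left out and 0.81 with MIC 3 left out. The exact two-sided permutation p of Yme1l1 was 0.1, the smallest that 3 libraries against 3 can give.

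**Figure D1:**
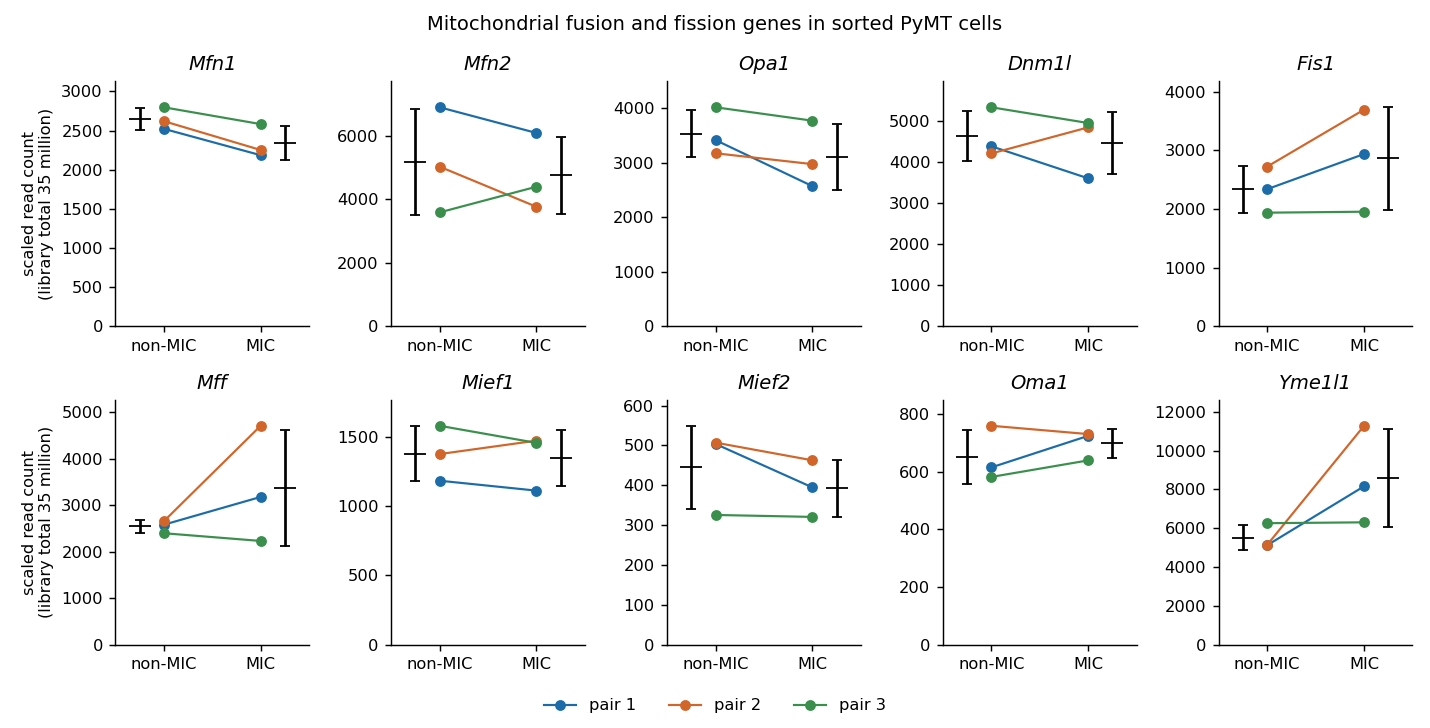
Scaled reads (vertical axes from 0, library totals of 35000000) of the 10 members in non-MICs and MICs. Points joined by a line are libraries with the same number, and the black bars beside them are the mean ± SD of 3 libraries. The lines of Mfn1, Opa1 and Mief2 all slope down from non-MIC to MIC, those of Yme1l1 and Fis1 slope up in pairs 1 and 2 and are nearly flat in pair 3, and only for Yme1l1 do the groups not overlap.

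By the limma fit over all genes, 0 of the 10 members passed an adjusted p of 0.05, beside 0 of 22310 genes (0.0%). At an unadjusted p under 0.05 the limma fit gave 1 member, Yme1l1, beside 322 genes (1.44%), and edgeR also passed 0 genes adjusted, with 295 unadjusted (1.32%). Same-numbered libraries departed from their group means together, and with the number as a block limma passed 29 genes (0.13%) and edgeR 315 (1.41%), at an adjusted p of 0.05. DESeq2 passed 0.00448% of genes without the block and 0.596% with it. None of the 10 members passed the adjusted threshold in any of these fits, and with the block the smallest adjusted p of a member was that of Yme1l1, at 0.417 by limma and 0.126 by edgeR. At an unadjusted p under 0.05 the block gave 1 member, Yme1l1, in limma and in edgeR, beside 11.2% and 11.7% of all genes. The groups did not overlap for 1 of the 10 members, beside 6.24% of all genes, or 2.69% for groups that lay higher in MICs. The median log2 fold change of the members was -0.05, and that of all genes -0.04. Above 0 were 4 of the 10 members, beside 45.8% of all genes. The paper counts 3 independent experiments or tumors for this comparison. Whether the libraries of a population came from separate tumors is not given per sample, so the p-values measure the spread between these libraries. In sorted bulk RNA, fewer cells of a type and less RNA per cell cannot be told apart.

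Within pairs, the members differed beyond counting error about as often as other genes of like depth. The exact binomial 95% interval of the ratio, which covers counting error only, left out equality for 9 of the 10 members in pair 1, 7 in pair 2 and 6 in pair 3. Over the 7935 genes with a mean value within the members' range, the shares were 82.6%, 80.1% and 55.4%. Fis1 and Yme1l1 were higher in MICs in all 3 pairs, beside 12.5% of all genes and 13.1% of the 11173 genes with a mean value of at least 100. Mfn1, Opa1 and Mief2 were lower in all 3, beside 18.8% and 28.5% of the same genes. The other 5 members went both ways.

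The log2 differences of Yme1l1 were 0.67 (0.62 to 0.72) in pair 1, 1.13 (1.08 to 1.18) in pair 2 and 0.01 (-0.03 to 0.05) in pair 3. Thus the MIC level was 1.59-fold and 2.19-fold higher in the first and second pair. In the third, the counting interval included 0 on the deposited scale. Fis1 showed the same order, with log2 differences of 0.33, 0.44 and 0.01, the last within counting error (-0.06 to 0.09). Mff had 0.30 and 0.83 in pairs 1 and 2, and -0.10 (-0.17 to -0.03) in pair 3.

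On the deposited scale Mfn1 had log2 differences of -0.21, -0.22 and -0.12 in the 3 pairs, each beyond counting error. Opa1 was farthest below its partner in pair 1, where its log2 difference was -0.41 (-0.49 to -0.33), and differed little in pairs 2 and 3, at -0.09 in both. For Mief2 the difference of -0.35 in pair 1 was beyond counting error, and those of -0.13 and -0.02 in pairs 2 and 3 were not. Mfn2 had -0.18, -0.42 and 0.29, all beyond counting error and not of one sign. The differences of Dnm1l were -0.28, 0.20 and -0.11. Those of Mief1 were -0.09, 0.10 and -0.12, and those of Oma1 0.24, -0.06 and 0.14.

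Pair 3 was the pair in which the members differed least. The median size of the members' log2 differences was 0.29, 0.21 and 0.11 in pairs 1, 2 and 3. Over all genes with a mean value of at least 100 the SD of the log2 differences was 0.59, 0.52 and 0.28 in the same order. Pair 3 also held the deepest libraries, so its small differences are the most precisely counted ones. Rescaling by TMM factors lowered all log2 differences of pair 2 by 0.11 and raised those of pairs 1 and 3 by 0.04 and 0.07. After it Mief2 was no longer lower in all 3 pairs (0.05 in pair 3), and Mief1 was. The directions of Fis1, Yme1l1, Mfn1 and Opa1 held. In pair 3 the log2 differences of Yme1l1 and Fis1 were then both 0.08. Those of Mfn1 were then -0.17, -0.33 and -0.05 in pairs 1, 2 and 3. The counting intervals do not cover such a change of scale.

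**Figure D2:**
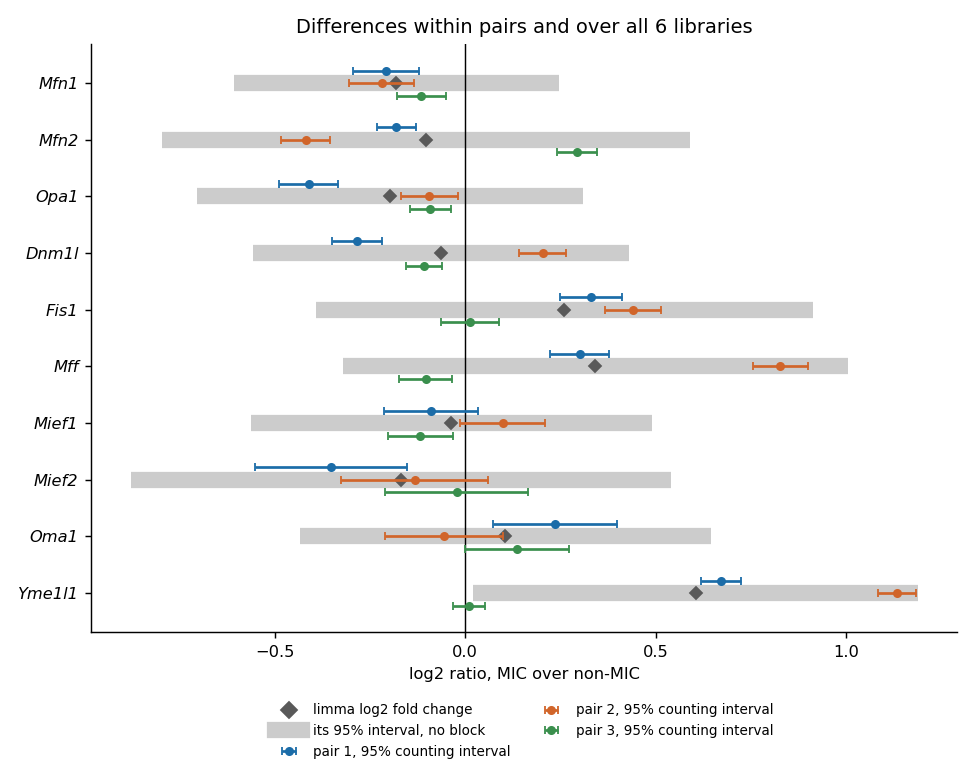
Log2 ratio of MIC over non-MIC (horizontal axis) for each member. Colored points are the 3 same-numbered pairs with 95% counting intervals, the diamond is the limma log2 fold change and the grey bar its 95% interval without a block. The grey bar of Yme1l1 alone stays above 0, from 0.02 to 1.19, while its pair 3 lies at 0.01.

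Transcript length moved with the differences in pair 1 and in part in pair 2, but not in pair 3, and the members differ widely in length. The principal transcript in the GENCODE annotation is 786 bases long for Fis1, 1894 for Mff, 1915 for Oma1, 2522 for Mief2, 3966 for Dnm1l, 4341 for Mfn2, 4562 for Mfn1, 4707 for Yme1l1, 5148 for Mief1 and 6230 for Opa1. Among genes with a mean value of at least 100, the median log2 difference of the 556 genes under 1 kb was 0.39, 0.43 and -0.06 in pairs 1, 2 and 3. That of the 3709 genes of 4 kb and over was -0.36, -0.08 and -0.05.

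The 3 shortest members, Fis1, Mff and Oma1, and the longer Yme1l1 had log2 fold changes above 0, and that of the longest member, Opa1, was below 0. Fis1 stood at the 41.2, 50.5 and 68.3 percentile of its length class in pairs 1, 2 and 3, and Opa1 at the 45.3, 49.0 and 37.6 percentile. Both were thus near the middle of genes of like length. Yme1l1 stood apart from its class, at the 94.7 and 98.5 percentile in pairs 1 and 2 and at the 64.6 percentile in pair 3. Mff was at the 60.9, 89.6 and 33.7 percentile. Between the 25 and 75 percentiles of their classes lay 9 members in pair 1, 7 in pair 2 and 8 in pair 3. The part of transcript length, or of RNA integrity, in these differences was not tested.

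**Figure D3:**
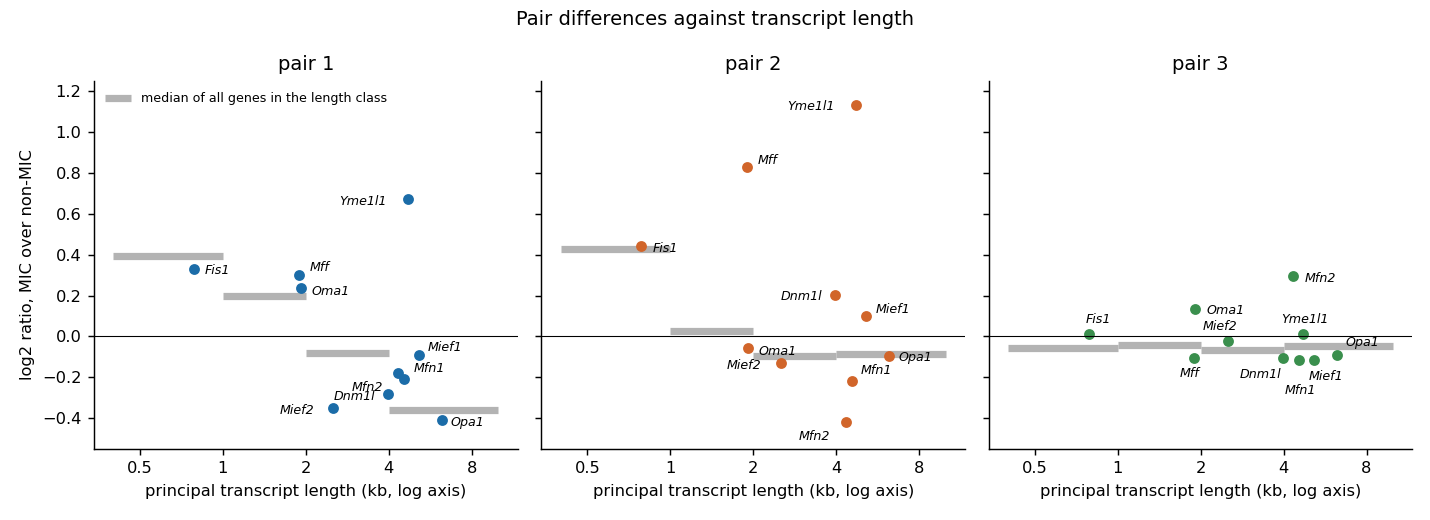
Log2 ratio of MIC over non-MIC of the members (points) against the length of the principal transcript in kb (log axis), in 3 panels for the 3 pairs. Grey bars are the medians of all genes with a mean value of at least 100 in 4 length classes. Fis1 and Opa1 lie near the bars of their classes in pairs 1 and 2, Yme1l1 lies above its bar in both, and in pair 3 the bars are level at -0.06 to -0.04.

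Set per kb of the principal transcript, the level of Fis1 was the highest and that of Mief2 the lowest of the members. Over all 6 libraries Fis1 was at 3306 ± 856 scaled reads per kb (SD, n = 6), Mff at 1562 ± 484, and Yme1l1 at 1496 ± 500. Dnm1l followed at 1148 ± 156 scaled reads per kb and Mfn2 at 1142 ± 304. The fusion genes Mfn1 and Opa1 were at 546 ± 51.1 and 533 ± 85.2 scaled reads per kb. Oma1 was at 353 ± 37.9, Mief1 at 265 ± 35.1 and Mief2 at 166 ± 33.6. Among neighbors in this order, Mff and Yme1l1, Yme1l1 and Dnm1l, Dnm1l and Mfn2, and Mfn1 and Opa1 did not differ beyond their SD. Fis1 was above Mff, Mfn2 above Mfn1 and Opa1 above Oma1 in all 6 libraries. The members spanned the 46.4 to the 95.1 percentile of 15566 genes with a principal transcript. The length used matters for Mff, which was second per kb of the principal transcript and eighth of 10 per kb of all annotated exons (303 ± 94.0).

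**Figure D4:**
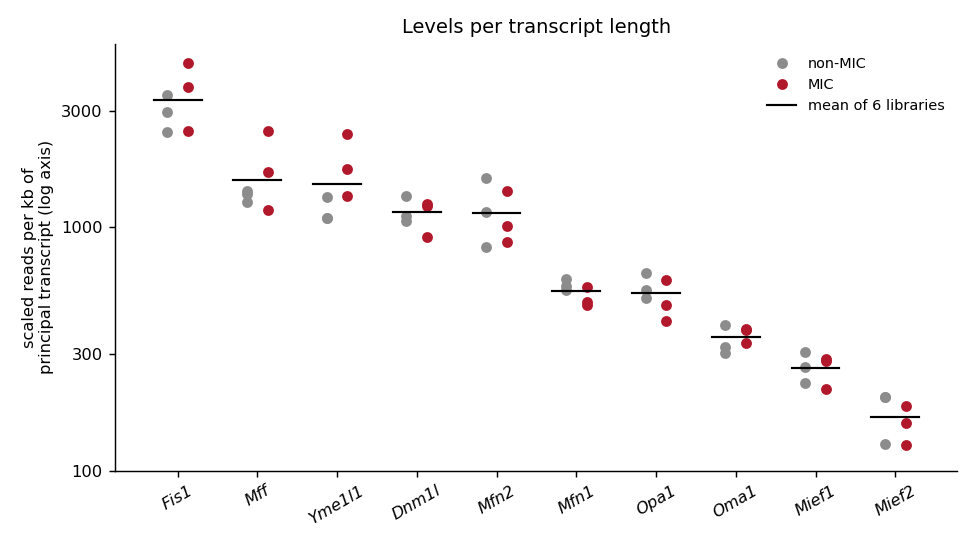
Scaled reads per kb of the principal transcript (log axis) of each member in the 3 non-MIC and 3 MIC libraries, with the mean of the 6 as a line. The order runs from Fis1 at 3306 to Mief2 at 166, and the spread between libraries is wider than the step to the next gene in several places.

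The ratio of the mitofusins and that of the adaptor genes differed more between replicate numbers than between populations. The per kb ratio of Mfn1 to Mfn2 was 0.34, 0.57 and 0.56 in MICs, against 0.35, 0.50 and 0.74 in non-MICs. The ratio of the adaptor genes, Mief1 to Mief2, was 1.38, 1.56 and 2.22 in MICs, against 1.15, 1.33 and 2.38 in non-MICs. Both were lowest in the libraries numbered 1 of each population. The ratio of Mff to Fis1 stayed between 0.40 and 0.53 in all 6 libraries.

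The ratio of Oma1 to Yme1l1, per kb, was 0.22, 0.16 and 0.25 in MICs, against 0.30, 0.36 and 0.23 in non-MICs, which overlap through the third pair. That of Opa1 to Yme1l1 was 0.24, 0.20 and 0.45 in MICs, against 0.50, 0.47 and 0.49 in non-MICs, without overlap. These members had the lowest and the highest log2 fold change, and the values of Yme1l1 alone already did not overlap. In pair 3 the log2 difference of the ratio was -0.10. How often ratios of other genes separate the groups was not counted. The mean log2 value of the 3 fusion genes less that of the 5 fission genes was lower in the MIC by 0.25 in pair 1 and by 0.53 in pair 2, and higher by 0.10 in pair 3. The difference thus did not have one sign over the 3 pairs.

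The replicate number took a larger share of the variance of log2 values than the population for 8 of the 10 members. The same held for 81.3% of the genes with a mean value of at least 100. The number has more levels than the population, so its share tends to be larger even without an effect. The share taken by the number was highest for Mief1 (91.9%), Mief2 (84.3%), Mfn2 (79.4%) and Fis1 (77.0%). Yme1l1 (9.38% number, 57.3% population) and Mfn1 (44.2% and 52.3%) were the exceptions. Across the 6 libraries, which share their pairing and the length pattern above, Fis1 and Mff had r = 0.93, and Mfn1 and Opa1 and likewise Dnm1l and Mief1 had r = 0.90. Mfn2 and Mief1 had the lowest, r = -0.93. These are descriptions over 6 points.

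The genes whose log2 values were most like those of a member over the 6 libraries were taken for Opa1, Mff and Yme1l1, among 11159 other genes with a mean value of at least 100. With so many genes and 6 points, correlations near 1 arise easily. Nearest to Yme1l1 were Rpp14 (r = 0.999) and Psma3 (r = 0.997), which encode a subunit of ribonuclease P and a subunit of the proteasome core. Psma3 was at 6997, 10203 and 5097 scaled reads in MICs and at 4329, 4107 and 5304 in non-MICs, and thus also had its highest value in MIC 2. Nearest to Mff were Usmg5, a small subunit of ATP synthase, and Yipf4, both with r = 0.997. Nearest to Opa1 were Ap1g1 (r = 0.998), a subunit of the AP-1 clathrin adaptor, and Mgam (r = 0.996).

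Promoters of the members were searched for motifs linked to mitochondrial or growth gene control, in RefSeq windows of 250 bases before to 50 after each start on GRCm38.p6, which were found for all 10. The letters searched on both strands were GCGCATGCG for NRF1, TCAAGGTCA for ERR, CCGGAAG for ETS factors and CACGTG for the E-box. The ETS letters were in a window of 5 members, Mfn1, Dnm1l, Fis1, Mief1 and Yme1l1, and in 6 of the members' 15 windows, beside 8.86% of all windows and 21.6% of the genes with a mean value of at least 100. The NRF1 letters were found for Opa1 alone, beside 1.75% of all windows and 4.33% of such genes. The E-box was found for Mief2 alone, beside 7.15% of windows and 12.2% of such genes. The ERR letters were in none of the members' windows, beside 0.423% of all. A match describes letters and is not a site of binding.

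The stretches of 30 bases that hold these matches are shown for the members that went one way in all 3 pairs, lower for the first 3 names and higher for Fis1 and Yme1l1. They are written 5′ to 3′ in the sense of the gene, all on the plus strand, with the match in capitals. In Opa1 the capitals are 2 NRF1 matches on opposite strands that overlap, since the motif is nearly its own reverse complement. The E-box reads the same on both strands.
Mfn1, ETS, 44 bases before the start, chr3:32529426-32529455: agatccgaagcgCCGGAAGtagccgcccct
Opa1, NRF1, 59 bases before, chr16:29579265-29579294: gtggctccccGCGCATGCGCatgtcatccg
Mief2, E-box, 24 bases before, chr11:60728362-60728391: ctccgttttgagCACGTGtgcgcaggagtt
Fis1, ETS, 18 bases before, chr5:136953245-136953274: aggaggcaccacCCGGAAGttcaggcttcc
Fis1, ETS, 19 bases after a second start, chr5:136962084-136962113: cacaggtcgatgCCGGAAGtgcctctccgc
Yme1l1, ETS, 73 bases before, chr2:23156420-23156449: gtgacagagtccCCGGAAGaggcggagcgc
Yme1l1, ETS, 19 bases before, chr2:23156474-23156503: cggaggcttgctCCGGAAGcactgtaccta
Yme1l1, ETS on the opposite strand, 3 bases after, chr2:23156496-23156525: tgtacctatggtCTTCCGGggcagatgtcg
Members with the ETS letters lay on both sides, Mfn1 with a log2 fold change of -0.18 and Yme1l1 with 0.61, so the letters did not go with one direction.

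Of 46 other genes of mitochondrial dynamics, all in the table, 0 passed the adjusted threshold in limma or edgeR, with or without the block, beside the shares of all genes given above. At an unadjusted p under 0.05, limma gave 0 of them without the block and 4 with it, Fundc1, Minos1, Rhot2 and Trak1, beside 11.2% of all genes with the block. Their median log2 fold change was -0.06, with 22 of 46 above 0. In all 3 pairs 8 of the 46 were higher in MICs and 12 lower. The shares were 12.5% and 18.8% of all genes, and 13.1% and 28.5% of genes with a mean value of at least 100. After TMM rescaling the counts of the 46 turned to 12 higher and 8 lower. For 5 of the 46 the groups did not overlap, beside 6.24% of all genes.

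Among 14 partners of DRP1 and fission regulators, 4 were higher and 5 lower in all 3 pairs (5 and 2 after TMM rescaling). Fundc1, a mitophagy receptor of the outer membrane that also binds DRP1, was at 1058, 1751 and 889 scaled reads in MICs and at 852, 837 and 828 in non-MICs, without overlap. Its log2 fold change was 0.49 (SE 0.29), and 0.21 without MIC 2. Inf2, a formin that builds actin at sites of fission, had -0.35 (SE 0.79). Its values ran from 2442 to 16338 scaled reads and followed the replicate number. Its log2 fold change was above 0 without MIC 3 (0.11) or non-MIC 2 (0.38), where the partner library stayed in. With the block its SE was 0.17, and with whole pairs left out as well the log2 fold change ran from -0.50 to -0.23. None of the 5 fusion cofactors went one way in all 3 pairs on the deposited scale, while after TMM rescaling Miga1 was lower and Mtch2 higher in all 3.

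Of the 4 genes of mitochondrial transport, Rhot2 and Trak1 were lower in MICs in all 3 pairs, without overlap between the groups. Rhot1 and Trak2 went both ways. Of genes with a mean value of at least 100, 28.5% were lower in all 3 pairs, and 6.24% of all genes did not overlap. Rhot2 encodes MIRO2, which ties mitochondria to motor proteins, and was at 663, 784 and 666 scaled reads in MICs and at 1104, 999 and 811 in non-MICs. For Rhot2 the log2 fold change was -0.46 (SE 0.23). Trak1, an adaptor between MIRO and kinesin, had -0.44 (SE 0.26), and -0.19 without MIC 1.

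Among 7 inner membrane proteases and scaffolds, 4 had a log2 fold change above 0, and the median of the 7 was 0.05. In all 3 pairs 1 of them, Phb, was higher and 2 were lower (2 and 1 after TMM rescaling). The lower genes were Afg3l2 and Spg7, which form the m-AAA protease of the matrix side. Both had a log2 fold change of -0.28. Yme1l1, the i-AAA protease of the other side, was the one of these 3 AAA protease genes with a log2 fold change above 0. Without non-MIC 2, Spg7 was at -0.15 and Afg3l2 at -0.17. Under TMM rescaling Afg3l2 was no longer lower in all 3 pairs. Of 11 genes of the cristae complex MICOS and its partners, 7 had a log2 fold change above 0, and the median of the 11 was 0.29. In all 3 pairs 3 were higher, among them Apoo (0.49, SE 0.45, and 0.06 without MIC 2), and 1, Dnajc11 (-0.34, SE 0.20), was lower. Under TMM rescaling 4 were higher and 0 lower. Minos1, with the largest log2 fold change of the 46 other genes (0.52, SE 0.31), was higher in all 3 pairs only under TMM rescaling. Of 5 genes of ubiquitin control and mitophagy, Usp30 and Pink1 were lower in all 3 pairs, beside 28.5% of genes with a mean value of at least 100. Both had a log2 fold change of -0.27. Without MIC 1 that of Usp30 was -0.05, and without MIC 3 that of Pink1 was -0.05, with the partner library kept in. With whole pairs left out and the block, Usp30 ran from -0.36 to -0.21 and Pink1 from -0.32 to -0.20.

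**Figure D5:**
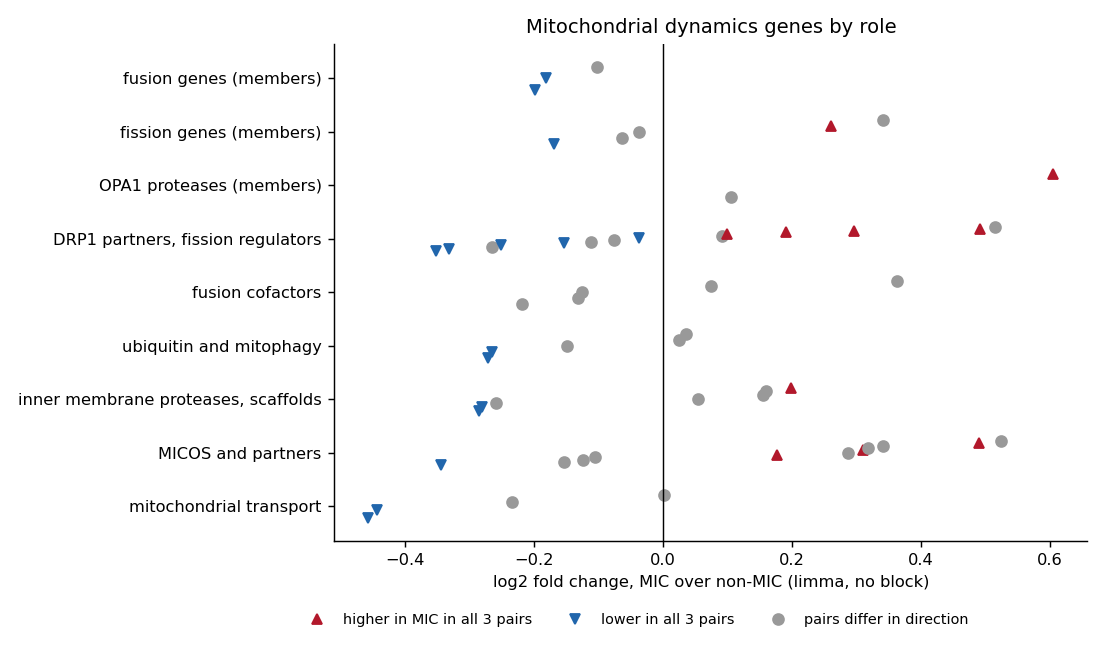
Log2 fold change of MIC over non-MIC (limma without a block, horizontal axis) of the 10 members and 46 other dynamics genes, in rows by role. Triangles mark genes higher (up) or lower (down) in MICs in all 3 pairs, and grey points those that went both ways. Yme1l1 lies farthest to the right at 0.61, and the 2 transport genes Rhot2 and Trak1 farthest to the left at -0.46 and -0.44.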

How the data were processed

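The deposited signal is read counts per gene that the authors scaled to the same total in each library. Libraries were stranded mRNA libraries (TruSeq), read for 75 cycles. The paper names Bowtie2 and samtools, and the submitters' processing notes name STAR and HTSeq, with mm10 and GRCm38 as builds. Versions and the strand setting of the counting are not given in the sources used here. Reads were not collapsed by molecular identifiers.

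Values were divided by what 1 read is worth in a library (0.676 to 1.11), which gave whole reads within 0.01 for at least 99.97% of values. GENCODE vM21 gave symbols for 22161 of 22310 identifiers. It places exons of Gm49521 and AC140267.1 (no values used here) over Dnm1l and Mief1, and of C430014B12Rik (highest value 12.7) over Mff, so these 3 counts are less certain. The 10 members and the gene lists were chosen with earlier results of these data known. A further marker list is not reported here.

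limma 3.58.1 (lmFit, eBayes with a trend) was run in R 4.3.3 on log2(value + 1) of all 6 libraries, with Benjamini-Hochberg adjustment over 22310 genes and no block, since the authors ranked genes without pairing. A fold change on this scale understates that of low genes. The recovered reads were tested with edgeR 4.0.16 (quasi-likelihood) and DESeq2 1.42.0. Scripts were tested on simulated data. The pairing rests on the replicate numbers in the labels and on the values. After the mean of each population was taken off, libraries with the same number had correlations of 0.573, 0.668 and 0.746. Other pairs of libraries had -0.33 on average, a negative value that largely follows from taking off the means and adds no separate support. Pair ratios carry exact binomial (Clopper-Pearson) 95% intervals. All 10 members were named, and of the other dynamics genes, per role, the 2 with the largest change among those with one direction in 3 pairs and at least 100 reads in every library. Nearest genes were ranked by Pearson r for the fusion, fission and protease gene with the largest change. Alternatives were the pseudocount (0.1 or 10), a filter at the median, quantile and TMM scaling, limma without a trend, the replicate block, the other tools, and leaving out each library or pair.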

Additional observations from a re-analysis of the deposited data

How the results depend on the processing

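In none of the 21 alternatives did a member or another dynamics gene pass the adjusted threshold. The replicate number as a block changed no call of a named gene other than Thy1 and the basal markers Krt5, Acta2, Myh11 and Cnn1, which passed with it in limma, and moved the count of all genes called from 0 to 29 in limma, 315 in edgeR, 133 in DESeq2, and 32 in limma after TMM rescaling, the last an alternative chosen after seeing the data. DESeq2 without the block called 1 gene. With the block, leaving out each pair gave 0 to 59 genes called (11 without pair 1, 59 without pair 2, 0 without pair 3), and the cause was not tested. The members' median log2 fold change ran from -0.047 to 0.081 when each library or pair was left out, with the highest value without MIC 1. Signs changed for members near 0: Mief1 was 0.029 after quantile normalization. With single libraries left out, Mfn2 ran from -0.34 to 0.13, Dnm1l from -0.14 to 0.085, Mief1 from -0.14 to 0.096, Inf2 from -1.05 to 0.38 and Cd24a, a gene of the sort gate, from -0.17 to 0.22. With pairs left out and the block, Mfn2 ran from -0.30 to 0.057, Dnm1l from -0.20 to 0.048, Mief1 from -0.10 to 0.0041 and Cd24a from -0.21 to 0.13, with 0.037 without pair 3. Inf2 stayed below 0 there, from -0.50 to -0.23. Cd24a was 0.0017 in edgeR, 0.035 in DESeq2 and 0.017 in DESeq2 with the block. Yme1l1 ran from 0.34 (without pair 2, with the block) to 0.90 (without pair 3, with the block). Without the block and with 1 library left out, an arm of 2 libraries remained, and the partner of the library left out stayed in. With 3 libraries a population, the 95% intervals of the members' log2 fold changes reached 0.43 to 0.71 to either side of the estimate without the block, and 0.34 to 0.44 with it.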
